A study of Rattus norvegicus with 6 samples.

Results

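Transcripts of the eukaryotic translation initiation factors were followed in rat aortic smooth muscle cells under fluid shear stress. They were taken as every probe set whose single annotated symbol begins with Eif1 to Eif6, leaving out the Eif2ak kinases. This gave 70 probe sets of 45 genes, out of 20826 probe sets of 14217 genes that carry 1 symbol. Expression was measured on Affymetrix rat arrays in 3 shear cultures and 3 static cultures. The shear cultures were confluent monolayers held for 24 h at 14 dyn per square centimetre, an arterial level, in a parallel-plate chamber with laminar flow, and the static cultures were the static controls. All 6 cultures came from cells of passage 3 to 5 grown in F-12 HAM with 10% fetal calf serum, ascorbic acid and antibiotics, then synchronized for 24 h in medium with 0.1% bovine serum albumin. Each shear culture carries the pairing number of 1 static culture, from 1 to 3. The labels leave out what a pair shared and the strain, sex and age of the rats. The p-values therefore cover the differences among these cultures, whose spread could be technical. Any other difference between chamber and static culture cannot be told apart from shear stress.

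Initiation loads a ribosome on an mRNA and sets it at the start codon. The trimer eIF2 carries the initiator tRNA to the small subunit and is recharged with GTP by eIF2B. The large complex eIF3 and the small factors eIF1 and eIF1A hold the small subunit open for scanning. The cap-binding protein eIF4E, the scaffold eIF4G and the helicase eIF4A form eIF4F, which brings capped mRNAs to the ribosome, and the 4E-BP proteins keep eIF4E from eIF4G. Subunit joining is the step of eIF5B, and eIF6 keeps free large subunits from joining. Main control points are phosphorylation of eIF2 and of the 4E-BPs, which an array of transcripts does not read.

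The deposited intensity values are MAS5 signals on a linear scale, and median signals were 17.3 to 18.9 on shear arrays, against 21.1 to 22.6 on static arrays. Correlations across tested probe sets were 0.980 to 0.993 among shear arrays, 0.987 to 0.991 among static arrays and 0.882 to 0.906 between the groups. Of 8 smooth muscle markers 0 rose and 6 fell (median log2 fold change -0.97); the smooth muscle actin Acta2 read 740, 852.3 and 916 under shear, against 1656.7, 1970 and 1806.7 in static cells. Summed signals of that list were 5588 to 5648 under shear and 7895 to 8885 in static cells. The endothelial markers Pecam1, Kdr, Vwf and Tie1 stayed below the filter on low signals, at 8.6 or less on every array, and the 3 tested were not called. Of 7 leukocyte markers 2 rose and 1 fell, and Ptprc, Itgam and Lyz2 were below the filter, at 10.3 or less; summed leukocyte signals were 134.6 to 181.5 under shear and 183.9 to 236.6 in static cells. No marker read exactly 0. Of 6 fibroblast markers 1 rose and 4 fell, with sums of 878 to 1203 under shear and 1931 to 2975 in static cells. As a check of RNA quality, 3′ over 5′ signal in log2 was 0.393 ± 0.028 under shear and 0.255 ± 0.036 in static cells for beta-actin (SD, n = 3 each; exact two-sided permutation p = 0.1, the smallest possible), and 0.156 ± 0.0062 and 0.166 ± 0.0097 for Gapdh (exact p = 0.3). The part of these shifts in the results below was not tested. In bulk RNA fewer cells of a type and less RNA per cell cannot be told apart.

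Most of the initiation factors that changed under shear rose. Of the 69 probe sets tested, 35 rose, 7 fell and 27 did not pass, while across all 21729 tested probe sets 24.3% rose, 28.5% fell and 52.8% changed in either direction. By gene, with the brightest probe set standing for each, 25 rose, 4 fell and 16 did not pass, against 27.8% risen and 30.1% fallen among 11248 genes. A probe set was called when limma's paired fit over all probe sets gave a Benjamini-Hochberg adjusted p under 0.05. Fold changes are shear minus static of log2(signal + 16), so that changes of dim probe sets come out too small. The members' median was 0.26, beside -0.067 over all tested probe sets. That background median was 0.021 after quantile normalization and 0.082 after median centring, a shift of 0.15, so directions of changes of that size depend on the scaling. All but 2 of the tested members lay among the brighter 50% of probe sets, where 31.5% rose and 33.2% fell. All 3 shear arrays were above all 3 static arrays for 39 members (27.1% of all tested probe sets) and below them for 10 (32.9%). At least 2-fold changes were called for 3 risen members and 1 fallen, beside 5.96% and 8.95% of all tested probe sets. With 1 added in place of 16 they were called for 5 risen and 3 fallen members, beside 9.38% and 14.7% of all tested probe sets.

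**Figure D1:**
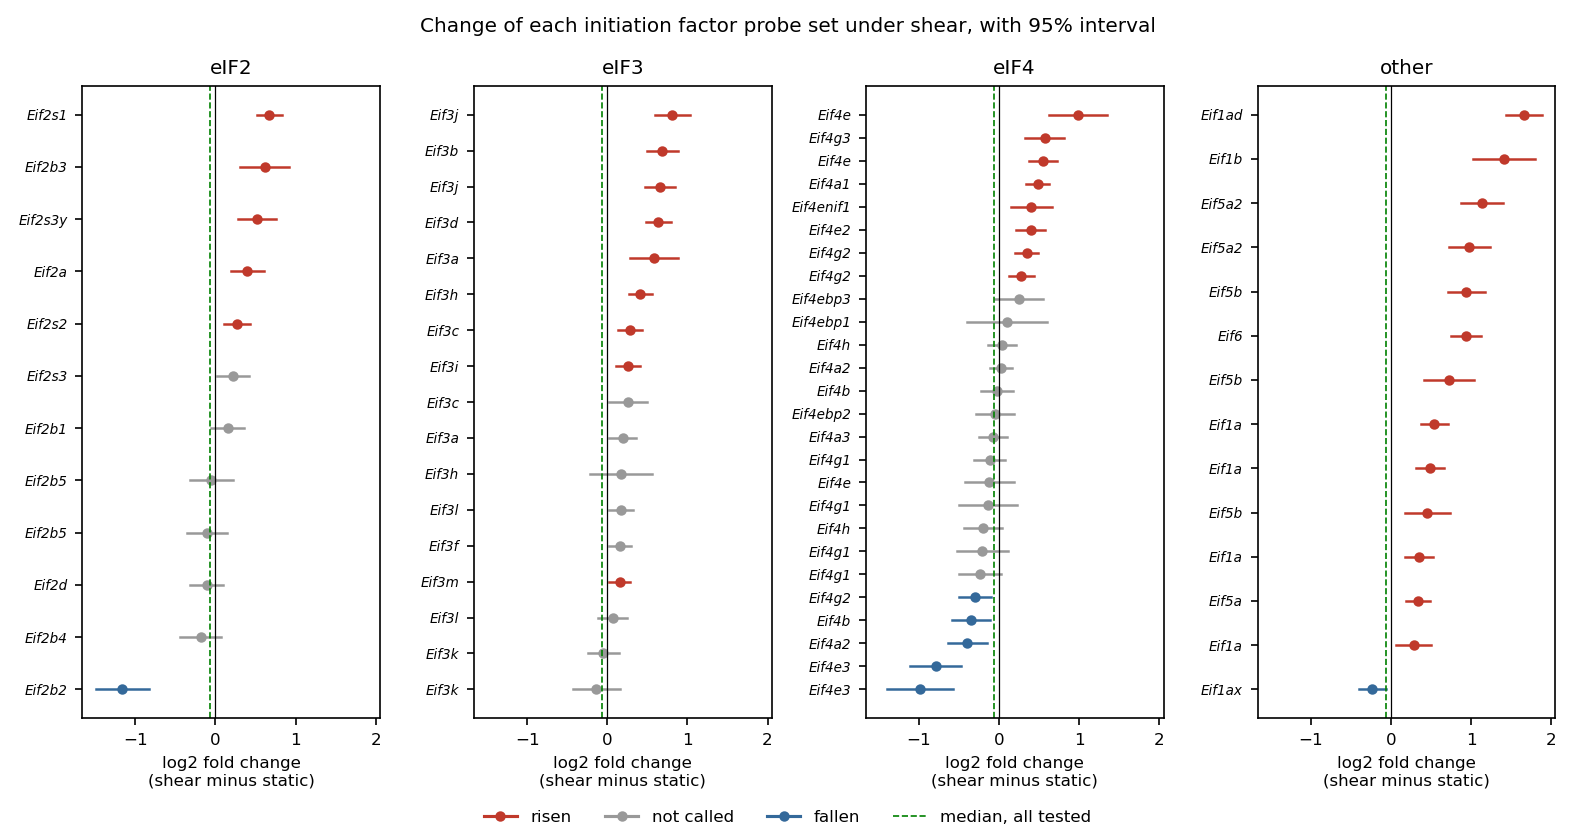
Log2 fold change (shear minus static, x axis) of each of the 69 tested probe sets, one row each, with its 95% interval, in the eIF2, eIF3, eIF4 and other groups. Red marks risen, blue fallen and grey not called, and the dashed line is the median of all tested probe sets (-0.067). The other group has 13 of 14 probe sets risen and the eIF4 group 8 risen and 5 fallen of 26.

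The factors were set in 4 groups by the digit after Eif in the symbol, so a group can hold factors of differing roles. In the other group, 13 of 14 probe sets rose and 1 fell, with a median of 0.63. Its genes are Eif1a, Eif1ad, Eif1ax, Eif1b, Eif5a, Eif5a2, Eif5b and Eif6. Neither Eif1 nor Eif5 had a member probe set. In eIF3, 9 of 17 rose and 0 fell, with a median of 0.26. In eIF2, which here takes in eIF2B, Eif2a and Eif2d, 5 of 12 rose and 1 fell, with a median of 0.19. In eIF4, 8 of 26 rose (30.8%) and 5 fell (19.2%), with a median of -0.037 that turned to 0.11 after median centring. The risen share of eIF4 probe sets is close to the 31.5% among the brighter 50% of probe sets, where 33.2% fell. By gene, with the brightest probe set standing for each, 6 of 15 in eIF4 rose and 2 fell, with a median of 0.10. Over all genes 27.8% rose and 30.1% fell. Across all tested probe sets 24.3% rose and 28.5% fell. Within pairs 1, 2 and 3 the medians were 0.50, 0.84 and 0.65 for the other group, 0.33, 0.30 and 0.19 for eIF3, 0.20, 0.18 and 0.13 for eIF2, and -0.016, -0.019 and -0.020 for eIF4. The groups thus kept their order in each of the 3 pairs. In the fit without pair 2 the medians of eIF2 and eIF3 were nearly equal, at 0.189 and 0.182. The difference between groups was not tested.

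**Figure D2:**
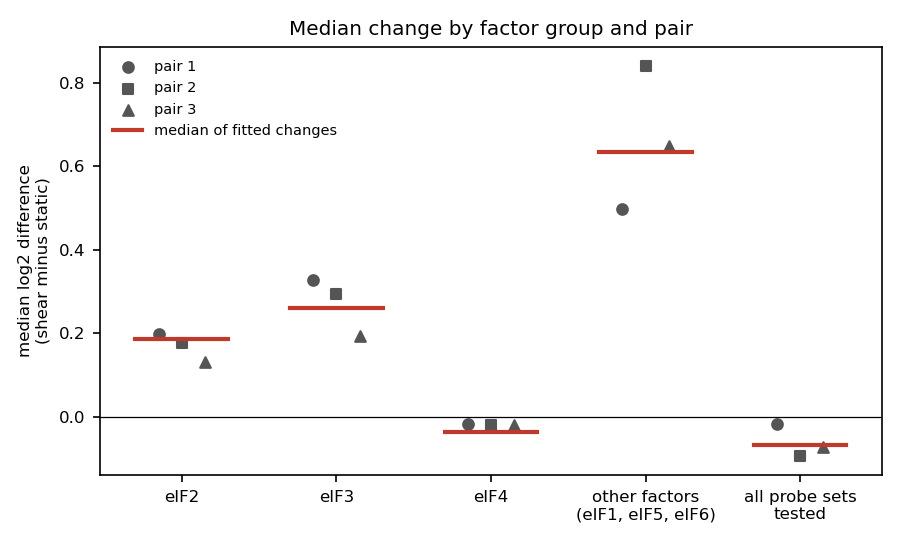
Median log2 difference (shear minus static, y axis) of each factor group and of all tested probe sets, within pair 1 (circle), pair 2 (square) and pair 3 (triangle), with the median of the fitted changes as a red bar. The other group lies at 0.50 to 0.84 in the 3 pairs, eIF4 at -0.020 to -0.016.

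Relatives of the scanning factors eIF1 and eIF1A held the largest increases among the members with 16 added to the signal; with 1 added, a dim Eif4e probe set (1.76) passed Eif1ad (1.75) and Eif1b (1.49). Eif1ad, a relative of eIF1A, read 608.2, 507.6 and 490.8 in shear cultures 1 to 3, against 165.4, 153.9 and 155.2 in static cultures 1 to 3. Every shear array was far above every static array, and the rise was 1.66 (95% interval 1.43 to 1.88; adjusted p = 9.8e-06). Eif1b, a close relative of the scanning factor eIF1, read 317.3, 590.6 and 562.8 under shear, against 166.2, 163.9 and 173.1 in static cells. The groups did not overlap, but the difference was smaller in pair 1, at 0.87, than in pairs 2 and 3, at 1.75 and 1.61 (fitted 1.41, 95% interval 1.02 to 1.80, adjusted p = 0.00027).

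The rat array carries Eif1a and Eif1ax, both coding for the scanning factor eIF1A. All 4 Eif1a probe sets rose, by 0.28 to 0.54. The brightest read 1194.6, 1141.1 and 1095.2 under shear, against 805.5, 821.3 and 720.7 in static cells (0.54, 95% interval 0.37 to 0.71, adjusted p = 0.00050). Eif1ax went the other way, at 794.1, 862.9 and 808.6 under shear, against 969.1, 993.1 and 940.1 in static cells. It was lower on every shear array and its fold change was -0.23 (adjusted p = 0.027), a call lost after median centring (-0.083, adjusted p = 0.43), without pair 2 (-0.25, adjusted p = 0.13) and without pair 3 (-0.24, adjusted p = 0.17). Fits that leave out a pair keep 1 residual degree of freedom. The 2 smallest rises of Eif1a, 0.28 and 0.35, were lost without pair 2 (adjusted p = 0.27 and 0.060) and without pair 3 (adjusted p = 0.19 and 0.055). Such close relatives can cross-hybridize, which was not tested.

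Subunit joining and large subunit factors rose on every probe set. Eif5b, the GTPase of subunit joining, had 3 risen probe sets at 0.46 to 0.94; the smallest rise was lost without pair 2 (adjusted p = 0.13) and without pair 3 (adjusted p = 0.059). On the brightest, shear arrays read 389, 374.6 and 377.3, against 219, 175.9 and 178.5 on static arrays (0.94, 95% interval 0.71 to 1.18, adjusted p = 0.00016). Shear and static arrays were well apart on this probe set, with little spread among the shear arrays. Eif6, the anti-association factor that also serves large subunit assembly, read 1184.7, 1201.8 and 1258.6 under shear, against 680.5, 582 and 623.4 in static cells. The rise was 0.94 (95% interval 0.75 to 1.12; adjusted p = 5.6e-05). Pairs 1 to 3 differed by similar amounts, 0.79, 1.03 and 1.00.

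The hypusine-bearing factor eIF5A, now known best for its part in elongation, has 2 genes. Eif5a2 rose on both probe sets, by 1.14 and 0.98. The brighter read 360.3, 472.1 and 449.2 under shear, against 188.6, 188.7 and 174.9 in static cells (95% interval 0.88 to 1.40, adjusted p = 0.00011). Eif5a, the widely expressed form, rose less, at 2442.6, 2814.3 and 2662.2 under shear, against 2117.2, 2191.2 and 1957.5 in static cells (0.33, 95% interval 0.19 to 0.48, adjusted p = 0.0031; 0.28, adjusted p = 0.056, without pair 3, and 0.21, adjusted p = 0.019, after quantile normalization). The groups did not overlap for either gene, and the intervals of the 2 genes were apart; the difference itself was not tested.

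Promoter windows from RefSeq (build GRCr8), 250 bases before to 50 after the annotated start, were matched to 41 of the 45 genes; 3 genes had 2 windows. The windows of the 6 genes with the largest rises on any probe set and of the fallen Eif2b2 are given 5′ to 3′. They show what sequence members of either direction hold. Eif4e is among the 6 only by a dim probe set (0.99), while its brightest rose by 0.55. Capitals mark matches on either strand to CACGTG (E-box), CCGGAAG (ETS site), TGATGNAA (amino acid response element) or TGACNNNGC (antioxidant response element).
Eif1ad (chr1:212103465-212103764, + strand): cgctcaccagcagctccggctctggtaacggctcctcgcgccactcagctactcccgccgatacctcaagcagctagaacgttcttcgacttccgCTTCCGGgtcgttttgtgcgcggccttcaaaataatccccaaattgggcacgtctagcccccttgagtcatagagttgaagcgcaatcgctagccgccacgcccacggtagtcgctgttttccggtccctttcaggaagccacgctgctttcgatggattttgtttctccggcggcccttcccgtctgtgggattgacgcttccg
Eif1b (chr8:129080908-129081207, + strand): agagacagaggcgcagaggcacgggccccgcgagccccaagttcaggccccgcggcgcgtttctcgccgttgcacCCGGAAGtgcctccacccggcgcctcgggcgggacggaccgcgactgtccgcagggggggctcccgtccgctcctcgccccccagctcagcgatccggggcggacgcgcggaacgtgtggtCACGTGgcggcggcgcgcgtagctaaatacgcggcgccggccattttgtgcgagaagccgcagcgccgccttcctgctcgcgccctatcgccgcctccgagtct
Eif5a2 (chr2:113657584-113657883, + strand): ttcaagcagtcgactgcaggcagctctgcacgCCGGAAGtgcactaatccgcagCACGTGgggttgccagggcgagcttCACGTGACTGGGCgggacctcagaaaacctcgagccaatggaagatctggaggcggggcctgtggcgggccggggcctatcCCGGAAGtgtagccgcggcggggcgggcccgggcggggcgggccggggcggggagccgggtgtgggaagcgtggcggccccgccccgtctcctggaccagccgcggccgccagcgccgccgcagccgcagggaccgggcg
Eif4e (chr2:229740503-229740802, + strand): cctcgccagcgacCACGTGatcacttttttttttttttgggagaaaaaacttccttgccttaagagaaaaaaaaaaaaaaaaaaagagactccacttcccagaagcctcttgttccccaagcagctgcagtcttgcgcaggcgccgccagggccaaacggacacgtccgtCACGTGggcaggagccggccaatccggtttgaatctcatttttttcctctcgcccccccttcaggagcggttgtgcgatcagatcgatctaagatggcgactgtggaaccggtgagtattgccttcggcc
Eif5b (chr9:47718456-47718755, + strand): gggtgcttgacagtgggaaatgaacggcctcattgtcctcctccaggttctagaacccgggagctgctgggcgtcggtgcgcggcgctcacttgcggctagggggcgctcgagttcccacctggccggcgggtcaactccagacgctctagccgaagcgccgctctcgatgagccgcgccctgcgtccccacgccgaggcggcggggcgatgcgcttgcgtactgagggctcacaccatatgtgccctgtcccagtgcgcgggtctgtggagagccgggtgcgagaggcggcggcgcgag
Eif6 (chr3:164791361-164791660, - strand): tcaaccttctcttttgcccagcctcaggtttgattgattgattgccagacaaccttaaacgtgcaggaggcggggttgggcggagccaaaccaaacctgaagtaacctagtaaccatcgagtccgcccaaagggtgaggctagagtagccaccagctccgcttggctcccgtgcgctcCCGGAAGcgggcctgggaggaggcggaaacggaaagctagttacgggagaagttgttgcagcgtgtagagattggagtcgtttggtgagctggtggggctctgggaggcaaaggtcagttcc
Eif2b2 (chr6:110597729-110598028, + strand): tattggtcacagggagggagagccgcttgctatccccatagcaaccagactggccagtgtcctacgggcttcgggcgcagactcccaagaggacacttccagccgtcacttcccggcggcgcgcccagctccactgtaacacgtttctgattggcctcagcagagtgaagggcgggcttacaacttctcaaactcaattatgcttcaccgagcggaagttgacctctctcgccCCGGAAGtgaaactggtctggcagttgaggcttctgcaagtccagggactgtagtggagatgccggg
The capitals in Eif1ad are an ETS site on the opposite strand, and Eif6 and Eif2b2 have 1 ETS site each. Eif1b holds an ETS site and an E-box, whose first base lies at -54 from the start. Eif5a2 holds 2 E-boxes, 2 ETS sites and an antioxidant response element that overlaps 1 of the E-boxes. Eif4e holds 2 E-boxes, with first bases at -237 and -80. The window of Eif5b holds no match to any of the 4 motifs.

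Over the 41 genes, 16 (39.0%) held an ETS site, beside 9.63% of all 27457 genes with a window. Of the 24 risen genes 10 held it, of the 15 not called 4, and of the 2 fallen both. An E-box was held by 9 of the 41 (22.0%), beside 7.08% of all genes: 5 of the risen, 4 of those not called and 0 of the fallen. The antioxidant response element was in 6 (14.6%, beside 13.1% of all genes) and the amino acid response element in 1, Eif2s2 (2.44%, beside 4.16%). Matched letters are a description and not a bound site.

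The eIF2 trimer rose in 3 of its 4 genes, beside 27.8% risen over all genes. Eif2s1, the alpha subunit that carries the regulatory phosphorylation site, read 1804.2, 1992.5 and 1936.9 under shear, against 1211.4, 1196.3 and 1168.6 in static cells. The groups lay far apart beside their spread, with a fold change of 0.67 (95% interval 0.52 to 0.83, adjusted p = 0.00011). Eif2s2, the beta subunit, read 2481.6, 2615.3 and 2434.8 under shear, against 1864.9, 2169.6 and 2233 in static cells. Its rise of 0.27 (adjusted p = 0.012) was lost after quantile normalization (0.15, adjusted p = 0.097) and without pair 2 (0.27, adjusted p = 0.052). The gamma subunit has an X-linked and a Y-linked gene. Eif2s3 read 470.9, 472.6 and 489.8 under shear, against 407.5, 399.2 and 418.1 in static cells. All shear arrays were higher, yet the change of 0.22 did not pass (adjusted p = 0.060), though it passed without the pair block (adjusted p = 0.043), after median centring (0.37, adjusted p = 0.0098) and without pair 1 (0.23, adjusted p = 0.012). Eif2s3y, from the Y chromosome, rose by 0.52 (adjusted p = 0.0035), at 485.7, 713.5 and 650.5 under shear, against 392.9, 481 and 389.3 in static cells. Whether probes of Eif2s3 and Eif2s3y cross-hybridize was not tested. Eif2a, an alternative carrier of the initiator tRNA, rose by 0.40 (adjusted p = 0.0067; 0.063 without pair 2 and 0.060 without pair 3), and Eif2d, which acts in reinitiation and recycling, did not pass (-0.11, adjusted p = 0.34).

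Among the 5 genes of eIF2B, the exchange factor that recharges eIF2, 1 rose and 1 fell. Over all genes 27.8% rose and 30.1% fell. Eif2b2, the beta subunit, read 332.9, 221.6 and 197.8 under shear, against 570.9, 545.4 and 589.5 in static cells. It was lower on every shear array, with a change of -1.16 (95% interval -1.49 to -0.83, adjusted p = 0.00031). Within pairs 1 to 3 it changed by -0.75, -1.24 and -1.50. Eif2b3, the gamma subunit, read 429.1, 338.4 and 336.6 under shear, against 207.8, 242.6 and 251.9 in static cells. It was higher on every shear array, by 0.61 (95% interval 0.31 to 0.92, adjusted p = 0.0056). The others did not pass: Eif2b1, alpha, at 0.15 (adjusted p = 0.18), Eif2b4, delta, at -0.18 (adjusted p = 0.20; 0.047 without pair 1), and the catalytic epsilon subunit Eif2b5 at -0.11 (95% interval -0.36 to 0.14) on its brighter probe set. That probe set read 123.6, 120.9 and 111.3 under shear, against 123.7, 131.5 and 131.3 in static cells, nearly the same levels.

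**Figure D3:**
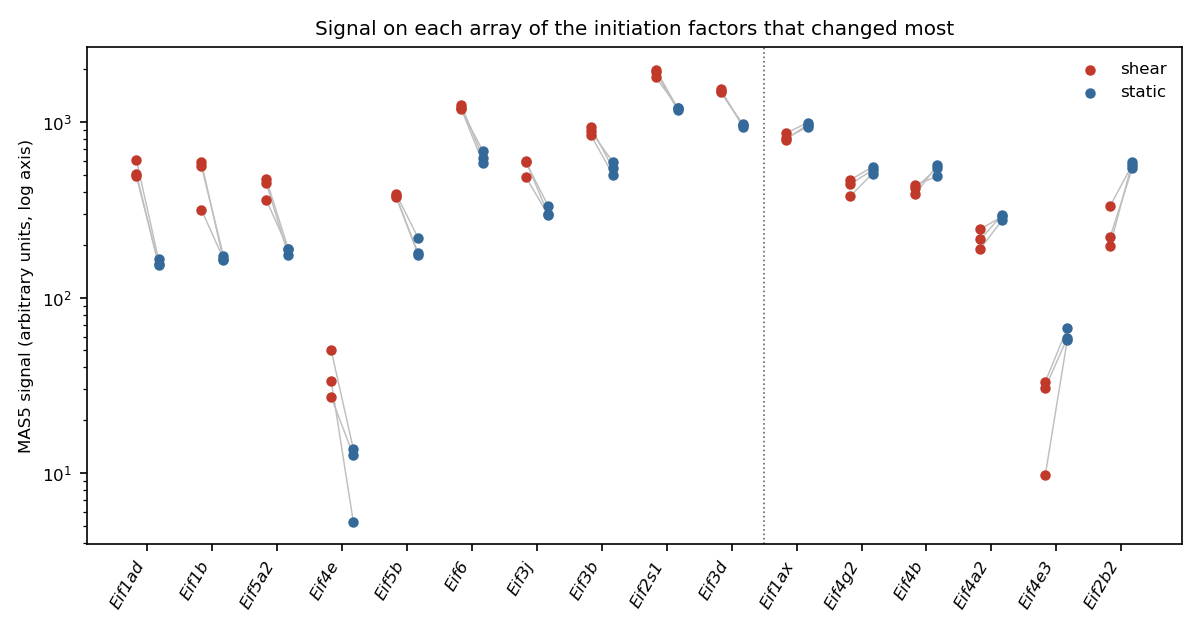
MAS5 signal (log axis) on each array for the 10 risen and 6 fallen members with the largest changes, 1 probe set per gene, with shear arrays in red left of static arrays in blue and lines joining pairs. Shear and static arrays do not overlap for any of the 16, which the choice of called members with the largest changes favours. Over all tested probe sets, 27.1% lay above and 32.9% below without overlap. The fallen Eif1ax, Eif4g2, Eif4b and Eif4a2 lose their calls after median centring. Eif4e is shown by its dim probe set, at 27.1 to 50.1 under shear and 5.3 to 13.8 in static cells.

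Of the 11 eIF3 genes among the members, 7 rose and 0 fell by limma (0 also at an unadjusted p under 0.05). The other 4 did not pass, and over all genes 27.8% rose and 30.1% fell. Neither Eif3e nor Eif3g had a member probe set. The loosely attached subunit Eif3j rose on both probe sets, by 0.81 and 0.66. The dimmer of them read 486, 598.8 and 591 under shear, against 296.7, 300.8 and 334.7 in static cells (adjusted p = 0.00024). The core subunit Eif3b read 885.1, 844.9 and 938.4 under shear, against 593.5, 501 and 544.6 in static cells, a rise of 0.69 (95% interval 0.50 to 0.88, adjusted p = 0.00028). Eif3d, which in human cells can bind the cap of some mRNAs, read 1497.6, 1479.5 and 1539.1 under shear, against 965.9, 976.2 and 943.9 in static cells. Its groups were tight and well separated, at 0.64 (95% interval 0.48 to 0.79, adjusted p = 0.00015). Smaller values passed for Eif3h (0.41), Eif3c (0.28), Eif3i (0.26) and Eif3m (0.16, adjusted p = 0.048). Those of Eif3h and Eif3c were on 1 of 2 probe sets, and the call of Eif3m was lost in 9 of 14 alternatives. Without pair 2 or pair 3, Eif3i (adjusted p = 0.10 and 0.12) and Eif3m (adjusted p = 0.23 and 0.31) no longer passed. After quantile normalization Eif3c (0.16, adjusted p = 0.078) and Eif3m (0.039, adjusted p = 0.57) did not pass, and Eif3c also missed the threshold without the intensity trend (adjusted p = 0.065).

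The largest core subunit, Eif3a, had probe sets that differed. The brighter read 1036.9, 967.8 and 1045.5 under shear, against 955.5, 833.4 and 877.4 in static cells, and did not pass (0.19, adjusted p = 0.056). Every shear array was nonetheless above every static array. The dimmer rose by 0.58 (adjusted p = 0.0066; 0.072 without pair 2), at 131.6, 179.9 and 163 under shear, against 101.5, 91.8 and 106.1 in static cells. Eif3f (0.16, adjusted p = 0.057), Eif3k (-0.047, adjusted p = 0.65) and both Eif3l probe sets (0.17 and 0.068) did not pass either. Without pair 1 the bright probe sets of Eif3a (adjusted p = 0.0031), Eif3f (0.014) and Eif3l (0.024) passed as risen, as they did after median centring.

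Within eIF4 the cap-binding genes divided. Eif4e, the cap-binding subunit of eIF4F, read 1553.6, 1955.5 and 1882.3 under shear, against 1190.6, 1270.5 and 1185.2 in static cells on its brightest probe set. It rose by 0.55 (95% interval 0.38 to 0.73, adjusted p = 0.00057), and the shear arrays were all higher. A dim probe set rose by 0.99 (27.1, 50.1 and 33.6 under shear, against 12.7, 13.8 and 5.3 in static cells). Its static signals lie below the array medians, and the value was 0.43 with a pseudocount of 64 and 1.76 with 1. In contrast, another dim probe set did not pass (-0.12, adjusted p = 0.48). Eif4e2, a cap-binding relative that represses translation, rose by 0.40 (adjusted p = 0.0037; 0.054 without pair 2). Eif4e3, a further relative, fell on both probe sets, by 0.99 and by 0.79. On the first, shear arrays read 9.7, 33.1 and 30.6, against 57.6, 66.8 and 59 on static arrays (95% interval -1.40 to -0.57, adjusted p = 0.0023). These signals are low, and the fold depends on the pseudocount, at -0.51 with 64 and -1.46 with 1 in place of 16. Eif4enif1, which moves eIF4E into the nucleus and P-bodies, rose by 0.40 (adjusted p = 0.017), a call lost without the pair block and without pair 3 (adjusted p = 0.088).

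None of the 3 genes for 4E-BP inhibitors of eIF4E passed in the paired limma fit, and 0 had an unadjusted p under 0.05. Eif4ebp1 read 1646.8, 1053.3 and 1056 in shear cultures 1 to 3, against 871.6, 1331.7 and 1270.3 in static cultures 1 to 3. It was higher under shear in pair 1 (0.91) and lower in pairs 2 and 3 (-0.33 and -0.26), so the fitted 0.10 (95% interval -0.40 to 0.60, adjusted p = 0.71) averages opposite signs. Without pair 1 it fell, by 0.30 (adjusted p = 0.00018), with 1 residual degree of freedom. Sesn2, an inhibitor of mTORC1 signalling picked out after its values were seen, also differed in pair 1: 820.3, 275.5 and 281.4 under shear, against 184.7, 294.1 and 294.7 in static cells (0.64, adjusted p = 0.19). Eif4ebp2 read 230.2, 228.3 and 212.5 under shear, against 248.8, 213.3 and 236.3 in static cells, with overlapping groups (-0.052, adjusted p = 0.70). Eif4ebp3 was at 0.25 (adjusted p = 0.15) and passed as risen after quantile normalization (0.35, adjusted p = 0.043) and median centring (0.40, adjusted p = 0.025).

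**Figure D4:**
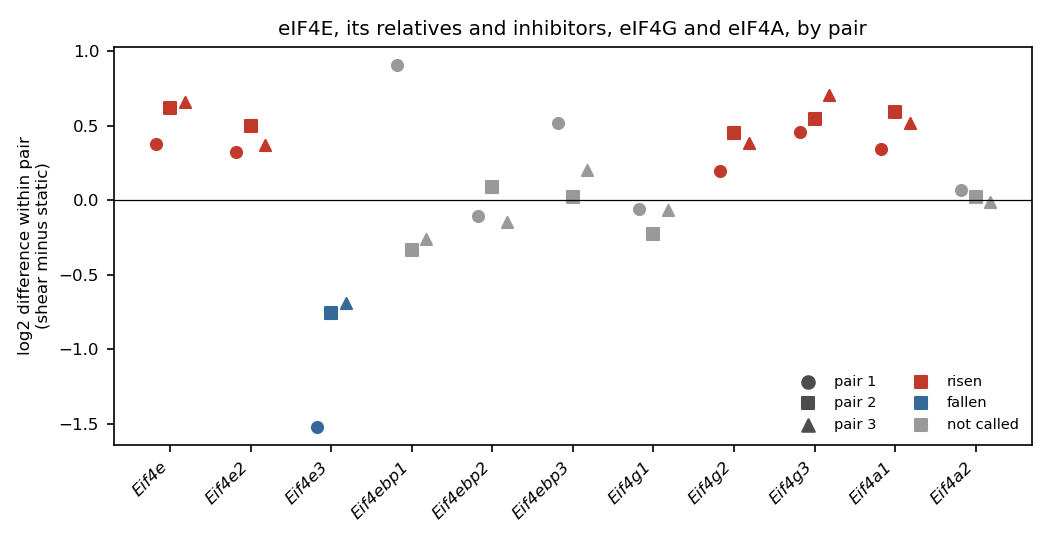
Log2 difference within each pair (shear minus static, y axis) for the brightest probe set of eIF4E, its relatives and inhibitors, eIF4G and eIF4A, with circles, squares and triangles for pairs 1, 2 and 3 and colours for the call. Eif4ebp1 lies at 0.91 in pair 1 and at -0.33 and -0.26 in pairs 2 and 3.

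Scaffolds and helicases of eIF4F also divided by gene. Eif4g1, the main scaffold, did not pass on any of 4 probe sets (changes of -0.24 to -0.12). Its brightest read 623, 438.5 and 483.4 under shear, against 649.9, 515.4 and 507.4 in static cells, with overlapping groups. Within pairs 1 to 3 this probe set changed by -0.059, -0.23 and -0.068. Eif4g3, another scaffold, rose by 0.57 (309.4, 224.8 and 263.7 under shear, against 220.6, 149.2 and 155.9 in static cells, adjusted p = 0.0023). Its other probe set read 1.5 or less on every array and was the 1 member below the filter.

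Eif4g2, a scaffold relative that lacks the eIF4E site, was the 1 gene with probe sets called in both directions. The brightest read 3023.2, 3612.2 and 3286.4 under shear, against 2631.9, 2638.8 and 2517 in static cells (0.34, adjusted p = 0.0025; 0.17, adjusted p = 0.033, after quantile normalization), and another rose by 0.28 (adjusted p = 0.010). The third read 380.1, 468.8 and 443.3 under shear, against 509.6, 556.4 and 533.6 in static cells (-0.30, adjusted p = 0.020), a call lost after median centring (-0.15, adjusted p = 0.22). Without pair 2 the smaller rise and the fall were lost (adjusted p = 0.11 and 0.095), and likewise without pair 3 (adjusted p = 0.088 and 0.11). Of the 18 genes with several probe sets, 11 had the same call on all that were tested. The 11 include Eif4g3, with only 1 of its 2 probe sets tested. They also include Eif2b5, Eif3k, Eif3l, Eif4g1 and Eif4h, whose probe sets all did not pass.

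Eif4a1, the helicase of eIF4F, read 3181.2, 4036.2 and 3638.7 under shear, against 2509, 2673.5 and 2533.2 in static cells. The groups did not overlap, and the rise was 0.48 (95% interval 0.34 to 0.63, adjusted p = 0.00042), or 0.32 after quantile normalization (adjusted p = 0.0023). Its relative Eif4a2 did not pass on the brighter probe set (0.025, 95% interval -0.11 to 0.16). On the dimmer it fell by 0.39 (245.3, 189.9 and 214.8 under shear, against 291.1, 277.5 and 297.2 in static cells, adjusted p = 0.013), though not after median centring (-0.25, adjusted p = 0.073). Eif4b, a helicase cofactor, fell on 1 of 2 probe sets, at 440.4, 389.6 and 421.5 under shear, against 490.7, 570 and 549.3 in static cells (-0.35, adjusted p = 0.019), again not after median centring (-0.20, adjusted p = 0.12). Without pair 2 the calls of Eif4a2 and Eif4b were lost (adjusted p = 0.13 and 0.19), and likewise without pair 3 (adjusted p = 0.11 and 0.12). Its second probe set did not pass (-0.021). The cofactor Eif4h (0.034 and -0.20) and the exon junction helicase Eif4a3 (-0.078) did not pass.

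Among genes that act on eIF2 phosphorylation, Ppp1r15a and Impact had larger changes than any member. Of 9 kinases, phosphatase subunits and their regulators, 5 rose and 0 fell by limma (0 also at an unadjusted p under 0.05), with a median of 0.24, beside 27.8% risen and 30.1% fallen over all genes. Ppp1r15a, the stress-induced subunit that directs phosphatase to eIF2 alpha, read 965.8, 706.5 and 715.6 under shear, against 126.1, 128.8 and 138.7 in static cells (2.45, adjusted p = 5.9e-06). Impact, an inhibitor of the kinase Gcn2, read 820.3, 1033 and 911.2 under shear, against 165.1, 158.8 and 146.4 in static cells (2.44, adjusted p = 3.1e-06). Both were far above static on all shear arrays. The endoplasmic reticulum kinase Eif2ak3 (PERK) rose by 1.09 (adjusted p = 0.00014) and the constitutive phosphatase subunit Ppp1r15b by 0.72 (adjusted p = 0.00093). The other kinases Eif2ak1 (0.11), Eif2ak2 (0.025) and Eif2ak4 (0.041) did not pass.

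Regulators of cap-dependent initiation moved both ways, with 4 of 22 risen and 7 fallen (median 0.040), beside 27.8% risen and 30.1% fallen over all genes; the list is close to or below these shares. The mTOR inhibitor Deptor fell by 1.63 (adjusted p = 2.5e-05), at 17.4, 12.7 and 8.9 under shear, against 80.6, 74.4 and 65 in static cells. Its shear signals lie near or below the array medians, and the fold change was -0.83 with a pseudocount of 64 and -2.45 with 1. Paip1, a partner of poly(A)-binding protein, fell by 1.54 (adjusted p = 3.1e-05), at 78.1, 67.2 and 66.4 under shear, against 219.5, 247.8 and 240.9 in static cells. Neither pair of groups overlapped. The scanning helicase Dhx29 fell by 0.70 (adjusted p = 0.00032) and the kinase Akt1 by 0.58 (adjusted p = 0.00048), while Mtor itself did not pass (0.082, adjusted p = 0.55). Among 13 elongation and termination factors, 7 rose and 2 fell (median 0.14), beside the same shares over all genes, 27.8% and 30.1%. Eef1e1, a tRNA synthetase complex partner, rose by 1.12 (adjusted p = 2.3e-05) and the release factor Etf1 by 1.04 (adjusted p = 5.2e-05). The elongation factor exchange subunit Eef1b2 rose by 0.18 (adjusted p = 0.011), and the kinase Eef2k, which inhibits elongation, fell by 1.00, at low signals (32, 15.1 and 10.9 under shear, against 44, 54.2 and 59.6 in static cells, adjusted p = 0.0053; -0.49 with a pseudocount of 64 and -1.52 with 1).

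**Figure D5:**
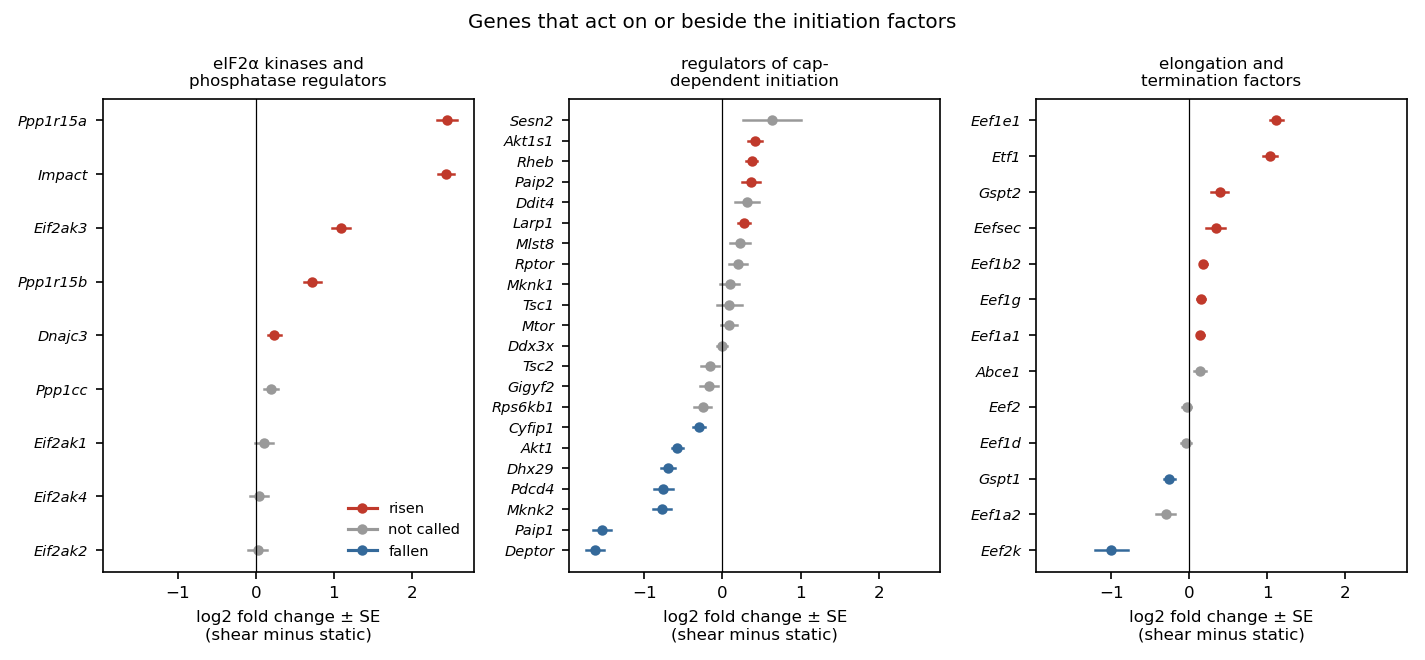
Log2 fold change (shear minus static, x axis) ± SE for genes that act on or beside the initiation factors, in 3 lists, with risen genes in red, fallen in blue and those not called in grey. Ppp1r15a and Impact lie near 2.4, Deptor and Paip1 below -1.5.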

How the data were processed

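Total RNA of 3 shear and 3 static cultures was labelled and hybridized to 1 array each. The deposited intensity values were made with MAS5, per the submitters' processing notes, which name no version. They are linear and already scaled, with a trimmed mean of 100.04 on each array, and the number of arrays limits the precision. Symbols came from the platform annotation, and all 45 member genes were current in a gene table of GRCr8. The log2(signal + 16) was taken, probe sets in the lowest 30% by mean were dropped (limit 4.50 on that scale), and 21729 were compared in limma 3.58.1 (R 4.3.3; lmFit, eBayes with an intensity trend) blocked on the pairing number. Two-sided p-values were Benjamini-Hochberg adjusted over all tested probe sets (threshold 0.05); the fit was tested on simulated data. Figures used matplotlib 3.10.9 (Python 3.11.15).

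The pairing came from the labels, and within pairs the arrays' departures from their group mean had correlations of 0.071, 0.065 and 0.063. The brightest probe set over all arrays stood for its gene. Alternatives were a fit with no block or a random one, median centring, quantile normalization, a filter of 50% or none, pseudocounts of 64 and 1, eBayes without trend or robust, a threshold of 0.01, averaging a gene's probe sets, and each pair left out.

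Members, lists and tests were chosen with earlier results of these data known. The rule for full values took up to 10 risen and 10 fallen members with the largest change and the same sign in every pair, the brightest probe set of core factors, genes called in both directions, and up to 4 genes per pathway list by smallest p. Mtor, Acta2 and the kinases that did not pass were added after their values were seen. No protein sequences were used here.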

Additional observations from a re-analysis of the deposited data

Results flagged for a closer look

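The platform annotation gave 5 further probe sets several symbols, 1 of which belongs to an initiation factor, so they were not counted among the members and no gene is named from them. In 4 of the 5, signal was higher on all 3 shear arrays than on all 3 static arrays, and these signals lie outside the comparisons above. They averaged 1261 under shear and 780 in static cells (1.62 times, limma log2 fold change 0.68, adjusted p = 0.00013), and 849 under shear and 556 in static cells (1.53 times, 0.59, adjusted p = 0.0010). The other two averaged 2700 under shear and 1990 in static cells (1.36 times, 0.44, adjusted p = 0.00037), and 1641 under shear and 1318 in static cells (1.24 times, 0.31, adjusted p = 0.011). The fifth averaged 330 under shear and 323 in static cells, overlapped between the groups and did not pass (0.022, adjusted p = 0.87). Across all tested probe sets 24.3% rose, and 27.1% were higher on all 3 shear arrays than on all 3 static arrays.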

How the results depend on the processing

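Of 964 combinations of a member and an alternative, 885 kept the call, with its direction where the call was risen or fallen. Members called in neither setting changed sign in 21 combinations. In every alternative run, 22 of the 35 risen, 3 of the 7 fallen and 18 of the 27 members not called kept their call. The numbers risen and fallen were 35 and 7, and 34 and 7 without the replicate block. Risen members numbered 32 after quantile normalization, 42 after median centring, 29 without the eBayes trend and 28 at the threshold of 0.01. The fallen numbered 3 after median centring, 6 without the trend and 3 at the threshold of 0.01. Calls lost without the trend were those of Eif2s2 (adjusted p = 0.085), Eif3c (0.065), Eif3i (0.070), Eif3m (0.24) and Eif1ax (0.099). The smallest rise of Eif1a (adjusted p = 0.068) and the smaller rise of Eif4g2 (0.060) were lost there too. By gene, 2 fell after median centring and 2 at the threshold of 0.01. When each gene's probe sets were averaged, 25 genes rose and 3 fell, but the genes were not all the same. The rises of Eif3h (0.29, adjusted p = 0.052) and Eif4g2 (0.11, adjusted p = 0.22) and the fall of Eif4b (-0.19, adjusted p = 0.11) then did not pass. Eif3a (0.39, adjusted p = 0.012) and Eif2s3 (0.22, adjusted p = 0.045) passed as risen. The eIF2 median was 0.13 and the eIF4 median -0.063 after quantile normalization. After median centring the medians were 0.33 for eIF2, 0.41 for eIF3 and 0.11 for eIF4, which turned its sign. The eIF4 median was -0.021 with no filter and with a 50% filter, -0.032 with a pseudocount of 64 and -0.039 with 1. Leaving out each pair in turn gave 25 to 40 risen and 3 to 9 fallen members, and 20 to 29 risen and 2 to 6 fallen genes. The medians then ran from 0.16 to 0.19 for eIF2, 0.18 to 0.33 for eIF3, -0.040 to -0.016 for eIF4 and 0.57 to 0.70 for the other factors. Eif4ebp1 ran from -0.30 without pair 1 to 0.32 without pair 2. Median centring and quantile normalization move all probe sets against the deposited scaling, and a threshold of 0.01 passes fewer by construction; for the other changes the cause was not tested. Signals near background limit Eif4e3 and the dim Eif4e probe sets.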
